A study of Mus musculus with 6 samples.

Results

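Potassium channel genes of mouse pancreatic islet cells were followed as 100 of the 46959 gene symbols in the deposited table. They are 98 genes of the Kcn families, chosen by symbol with the noncoding RNA Kcnq1ot1 left out, and the sulphonylurea receptor genes Abcc8 and Abcc9. RNA was sequenced from islets of adult triple transgenic mice that carried mIns1-H2b-mCherry, a nuclear reporter driven by the Ins1 promoter, together with Sst-cre and a floxed YFP allele, so all 3 sorted populations share these transgenes. Beta cells were sorted as mCherry-positive, delta cells as YFP-positive, and cells with both labels are called transdifferentiated, since Cre under the somatostatin promoter leaves a lasting YFP mark in delta cells and in their progeny. For each pool, islets of 10 to 12 animals of 1 sex were combined, held overnight at 5.5 mM glucose with 10% serum, and dissociated with 0.25% trypsin. Each population has 2 libraries, replicate 1 from a male pool and replicate 2 from a female pool. Per the series text, 1 set of islets gave all 3 populations of a pool, so the libraries are paired by pool. The main fit does not use this pairing. Its p-values rest on the differences between the male and female libraries within groups. One line of the series description gives alpha cells as the origin of the double-labelled cells. The title, the labels and the driver of Cre give delta cells, which is used here.

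Potassium channels set the resting membrane potential and end action potentials in electrically active cells. In beta cells the ATP-sensitive channel KATP, built of the pore Kcnj11 and the sulphonylurea receptor Abcc8, closes when glucose metabolism raises ATP, and the depolarisation that follows opens calcium channels and releases insulin. Delta cells carry KATP channels too and release somatostatin when they depolarise. Voltage-gated, calcium-activated, EAG-type, two-pore and inwardly rectifying channels shape the firing that follows.

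Values are RPKM, read counts scaled to gene length in kilobases and to M reads of the library, so levels can be compared between genes of different length. The read denominators behind them, worked out from the steps between low values, were 20.5 to 21.6 M in beta, 10.9 to 12.5 M in transdifferentiated and 15.7 to 17.0 M in delta libraries. Insulin transcripts take a large share of the beta libraries (Ins2 held 34.8% to 41.3% of summed RPKM there, 17.9% to 18.6% in transdifferentiated and 0.305% to 0.36% in delta libraries), and a large share for 1 gene lowers the RPKM of the others. A second scale, median-of-ratios scaling, divides each library by the median ratio of its genes to their geometric mean over libraries. For the members reported here, values on it are given wherever it ends a call or turns a direction. The delta libraries also held transcripts of other islet hormones: all 8 alpha-cell markers lay above the other 4 libraries in both delta libraries, and their summed level was 462 to 645 RPKM in beta, 1804 to 2599 in transdifferentiated and 15163 to 16534 in delta libraries. The 2 PP-cell hormones Ppy and Pyy summed to 558 to 802, 11877 to 12041 and 36498 to 37076 RPKM in the same order. The 12 acinar markers summed to 8660 RPKM in the male beta library and 165 to 2354 RPKM in the other 5. The 7 macrophage markers summed to 82.8 to 100 RPKM in beta, 44.3 to 45.6 in transdifferentiated and 73.4 to 88.0 in delta libraries. Of these, C1qa was highest in delta libraries (59.3 and 76.9 RPKM, against 34.9 and 40.5 in beta). C1qb, C1qc, Lyz2, Adgre1, Csf1r and Cd68 were highest in beta libraries. All of those but Cd68 were at or under 0.0661 RPKM in delta libraries. Lyz2 was at 5.82 and 7.99 RPKM in beta and at or under 0.145 RPKM elsewhere. All 9 mesenchymal and pericyte markers stayed under 1 RPKM in all libraries. The part of these other cells in the differences below was not tested, and in bulk RNA fewer cells of a type and less RNA per cell cannot be told apart.

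Of the 100 genes, 39 reached 1 RPKM in at least 2 of the 6 libraries and were among the 13022 genes tested. The 61 others lay below that filter: 15 were at 0 in all libraries, 33 stayed below 0.5 RPKM, and 13 reached 0.5 RPKM in at least 1 library, the highest being the opposite-strand transcript Kcnab3os at 1.95 RPKM in the female transdifferentiated library. A member that passed the filter through 1 high group had to differ between groups, so the counts that follow describe these 39 and not the whole set. Expression was concentrated: Abcc8, Kcnk16, Kcnj11, Kcnmb2 and Kcnh2 together held 80.1% of the summed RPKM of all 100 genes, and 9 genes had a mean above 10 RPKM. Summed over all 100, the channels were at 521 and 678 RPKM in beta, 806 and 931 in transdifferentiated and 1087 and 1216 in delta libraries. With insulin transcripts left out of the total, they made up 0.186% and 0.254%, 0.272% and 0.312%, and 0.296% and 0.321% of all RPKM, so the female beta library came closer to the other 4 than the male one.

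**Figure D1:**
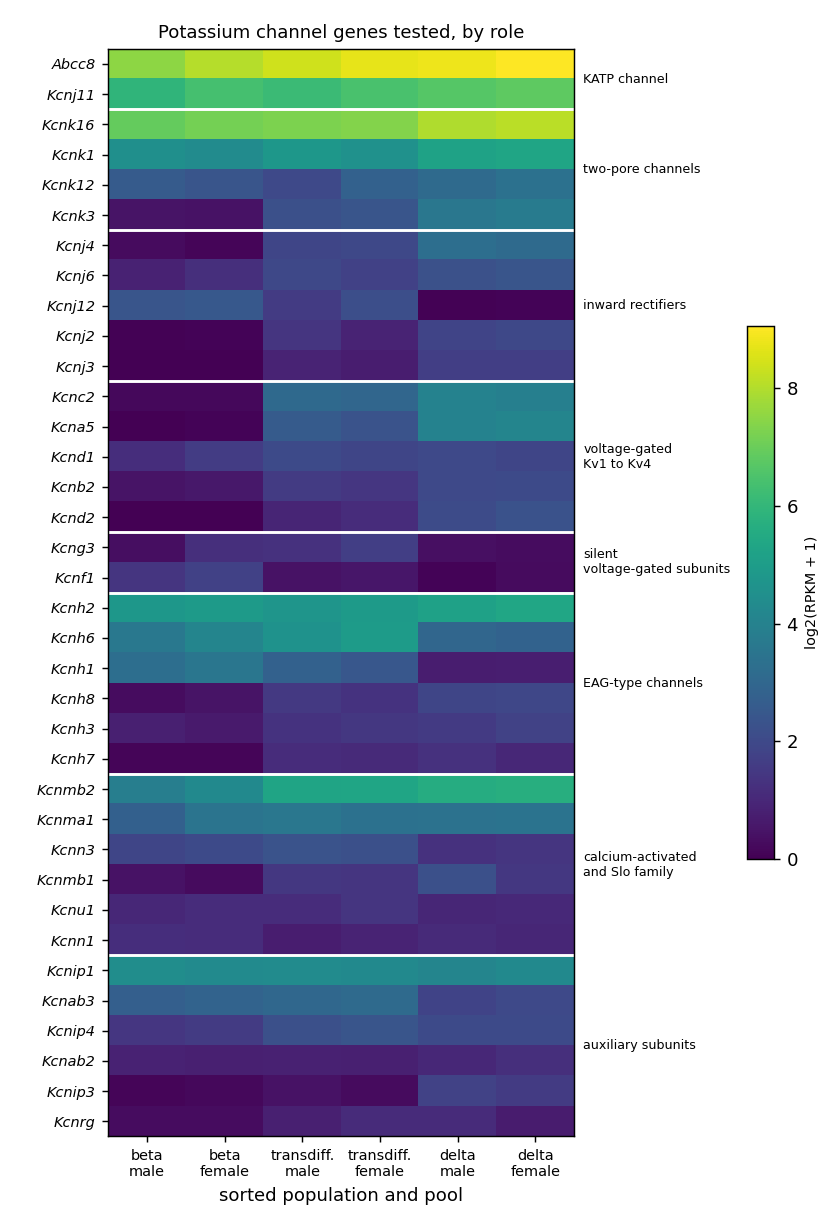
Level of 36 of the 39 tested potassium channel genes (vertical axis, grouped by role) in each of the 6 libraries (horizontal axis, sorted population and pool), shaded by log2(RPKM + 1). The KATP genes Kcnj11 and Abcc8 and the two-pore gene Kcnk16 are bright (high) in all 6 libraries, whereas Kcna5 and Kcnc2 are near 0 in the 2 beta libraries only.

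Most of the tested channels differed between the reference populations, beta and delta cells. Among the 39, 7 were higher and 25 lower in beta than in delta cells (limma on log2(RPKM + 1), adjusted p under 0.05 over all genes tested), or 17.9% and 64.1% of them. Over all 13022 genes 11.7% were higher and 46.3% lower, 57.9% in either direction. The libraries of the 2 groups did not overlap for 35 members, beside 80.9% of all genes. The median log2 fold change was -0.77 over the members and -0.36 over all genes. After scaling, which moves the median of all genes to -0.02, the members' counts were 9 higher and 19 lower (23.1% and 48.7%), their median was -0.41, and 27.8% of all genes were higher and 29.7% lower.

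The comparison of transdifferentiated with beta cells asks how the double-labelled cells compare with the population that shares their insulin reporter. Here 20 members (51.3%) were higher and 2 (5.1%) lower in transdifferentiated cells, beside 42.5% and 8.46% of all genes (51% in either direction), with medians of 0.67 for the members and 0.32 for all genes. The libraries did not overlap for 30 members, beside 76% of all genes. Scaling changed this to 18 higher (46.2%) and 6 lower (15.4%), beside 27.8% and 26.1% of all genes (53.9% in either direction), with medians of 0.36 and -0.00166. Before scaling the members' shares differed from those of all genes by less than after it.

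Against delta cells, the labelled origin, 7 members (17.9%) were higher and 11 (28.2%) lower in transdifferentiated cells. The background was 5.53% higher and 7.2% lower, 12.7% in either direction, and the medians were -0.30 for the members and -0.03 for all genes. The libraries did not overlap for 32 members, beside 63.4% of all genes. Scaling gave 6 higher and 11 lower, beside 5.91% and 6.43% of all genes. Without delta replicate 1 the median was -0.16 over the 35 members left to test and -0.01 over all genes. Without delta replicate 2 it was -0.22 over 36 members and -0.04 over all genes. All 3 comparisons use the same 6 libraries and are not independent of each other.

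Across the 3 populations, both transdifferentiated libraries lay between the beta and the delta libraries for 19 of the 39 members, against 27.7% of all tested genes. They lay above the other 4 for 5 members (16% of all genes) and below them for 1, Kcnn1 (5.9% of all genes), and overlapped with another population for 14. After scaling these counts were 20 between (26.6% of all genes), 2 above (12.3%) and 4 below (11.8%), so the group above shrank from Kcnh6, Kcnip4, Kcnab3, Kcnn3 and Kcng3 to Kcnh6 and Kcnip4.

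Proximal promoters of 6 of the genes that the comparisons turn on are shown here, so that they can be read beside the levels below. Each is the 250 bases upstream of the RefSeq start on the GRCm38.p6 build, written 5′ to 3′ on the gene's own strand. Kcna5 (chr6:126535556-126535805, minus strand) and Kcnj4 (chr15:79505242-79505491, minus strand) were lower in beta than in delta cells, Kcnh1 (chr1:192190527-192190776, plus strand) and Kcnj12 (chr11:61065554-61065803, plus strand) were higher, Kcnk16 (chr14:20269270-20269519, minus strand) was the most abundant gene with an entry, and Kcnh6 (chr11:106007898-106008147, plus strand) was higher in transdifferentiated cells than in both other populations. Capitals mark matches on either strand to the letters TGCTGA (a MAF half-site) or CATCTG (an E-box), 2 of the 4 motifs searched.
Kcna5: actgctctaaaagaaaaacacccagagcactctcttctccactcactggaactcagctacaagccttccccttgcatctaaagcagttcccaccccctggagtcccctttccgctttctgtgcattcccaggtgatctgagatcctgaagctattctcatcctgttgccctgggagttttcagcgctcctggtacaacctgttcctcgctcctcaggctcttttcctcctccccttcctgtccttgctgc
Kcnj4: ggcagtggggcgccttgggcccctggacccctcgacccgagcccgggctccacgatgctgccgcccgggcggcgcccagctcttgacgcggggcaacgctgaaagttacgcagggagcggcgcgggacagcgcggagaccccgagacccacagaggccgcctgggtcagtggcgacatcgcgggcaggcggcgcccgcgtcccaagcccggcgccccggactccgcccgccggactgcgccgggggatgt
Kcnh1: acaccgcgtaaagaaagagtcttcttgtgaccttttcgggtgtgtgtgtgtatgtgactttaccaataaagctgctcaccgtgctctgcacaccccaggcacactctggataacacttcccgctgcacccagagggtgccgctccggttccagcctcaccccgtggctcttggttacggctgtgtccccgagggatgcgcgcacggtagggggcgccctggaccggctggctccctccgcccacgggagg
Kcnj12: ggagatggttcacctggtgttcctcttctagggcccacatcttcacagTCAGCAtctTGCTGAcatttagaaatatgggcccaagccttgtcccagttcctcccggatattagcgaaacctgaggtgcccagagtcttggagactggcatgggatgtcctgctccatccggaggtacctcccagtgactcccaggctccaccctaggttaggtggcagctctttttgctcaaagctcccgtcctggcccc
Kcnk16: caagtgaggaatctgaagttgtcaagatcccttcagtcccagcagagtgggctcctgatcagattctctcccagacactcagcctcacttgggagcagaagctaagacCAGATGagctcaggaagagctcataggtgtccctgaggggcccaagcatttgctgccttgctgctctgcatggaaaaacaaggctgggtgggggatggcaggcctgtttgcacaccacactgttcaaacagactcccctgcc
Kcnh6: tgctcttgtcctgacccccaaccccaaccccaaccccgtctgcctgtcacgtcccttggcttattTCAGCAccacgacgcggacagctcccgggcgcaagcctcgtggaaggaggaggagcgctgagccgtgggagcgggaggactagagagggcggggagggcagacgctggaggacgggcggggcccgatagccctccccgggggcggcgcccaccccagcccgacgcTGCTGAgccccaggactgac
The other motifs searched, TAATTA (homeodomain) and TGACGTCA (cyclic AMP response element), do not occur in these windows. Kcnj12 and Kcnh6 each hold 2 matches to the MAF half-site and Kcnk16 holds 1 to the E-box, and the other 3 windows hold none. Among the 57 members with exactly 1 window, 4 (7.02%) hold the MAF half-site, 6 (10.5%) the E-box, and 0 the homeodomain or cyclic AMP letters. The shares over 32851 windows of the same length were 16.1%, 14.4%, 4.84% and 1.55%. Those windows include genes with more than 1 window, so the 2 sets were not chosen alike. The members' windows had a median GC content of 62%, against 52.4% over all windows, and a match of letters is a description and not a bound site. Abcc8 and Kcnj11 are named only.

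The KATP genes Kcnj11 and Abcc8 were among the 3 most abundant members and were lower in beta than in delta cells, Kcnj11 before scaling only. Kcnj11, the pore of the channel (chr7:46093953-46100764, GRCm38, minus strand), was at 59.4 and 82.5 RPKM in the male and female beta libraries, 71.5 and 87.3 in the transdifferentiated and 101 and 112 in the delta libraries. Abcc8, the receptor to which sulphonylureas bind (chr7:46104523-46180033, minus strand, 3759 bases from Kcnj11), was at 183 and 266, 337 and 419, and 452 and 530 RPKM. On the scale as deposited, both genes were highest in both delta libraries without overlap. The transdifferentiated libraries overlapped with beta for Kcnj11 but lay between the others for Abcc8. After scaling, the transdifferentiated libraries overlapped with another population for both genes.

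For Abcc8 the log2 difference was -1.15 (SE 0.21, adjusted p = 0.00353) in beta against delta cells and 0.77 (SE 0.21, adjusted p = 0.0205) in transdifferentiated against beta cells. The second call was lost after scaling (0.36, adjusted p = 0.163) and on leaving out beta replicate 1 (0.49, adjusted p = 0.0694) or transdifferentiated replicate 2 (0.61, adjusted p = 0.111), whereas the first was kept after scaling (-0.72, adjusted p = 0.0203). Kcnj11 was lower in beta than in delta cells by -0.60 (SE 0.18, adjusted p = 0.0277). This call was lost after scaling (-0.17, adjusted p = 0.402), and adjusted p was 0.0917 when beta replicate 1 was left out, 0.0707 for delta replicate 1 and 0.131 for delta replicate 2. Its transdifferentiated level did not pass the threshold against beta (0.17, 95% interval -0.26 to 0.61; -0.23 after scaling). Against delta cells neither gene passed, at -0.43 (interval -0.86 to 0.01, adjusted p = 0.196) for Kcnj11 and -0.38 (-0.87 to 0.11, adjusted p = 0.302) for Abcc8.

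A ratio within a library does not depend on the scaling of that library. There were 3.08 and 3.23 Abcc8 RPKM per Kcnj11 RPKM in the beta libraries, 4.71 and 4.80 in the transdifferentiated and 4.47 and 4.72 in the delta libraries. Both beta ratios were thus below the other 4, with means of 3.15 ± 0.106 in beta, 4.75 ± 0.0636 in transdifferentiated and 4.59 ± 0.175 in delta cells (SD, n = 2). An exact 2-sided permutation test gives p = 0.333 for beta against either other group, the smallest it can give with 2 libraries a group, and p = 0.667 for transdifferentiated against delta.

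Kcnj8 and Abcc9, the KATP pore and receptor of vascular smooth muscle and other tissues, lay below the filter. Kcnj8 was at 0.0364 and 0.0767 RPKM in beta, 0 and 0 in transdifferentiated and 0 and 0.025 in delta libraries, which corresponds to about 6, 0 and 1 reads per group. Abcc9 was at 0.0609 and 0.0701, 0.0476 and 0.0438, and 0.0141 and 0 RPKM, or about 23, 9 and 2 reads. Counts this low carry a large counting error, and no comparison was drawn from them. Because the pairs Kcnj11 and Abcc8 on chromosome 7 and Kcnj8 and Abcc9 on chromosome 6 are neighbours, these 4 genes make up 2 loci, of which the first was high and the second near 0 in every library.

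**Figure D2:**
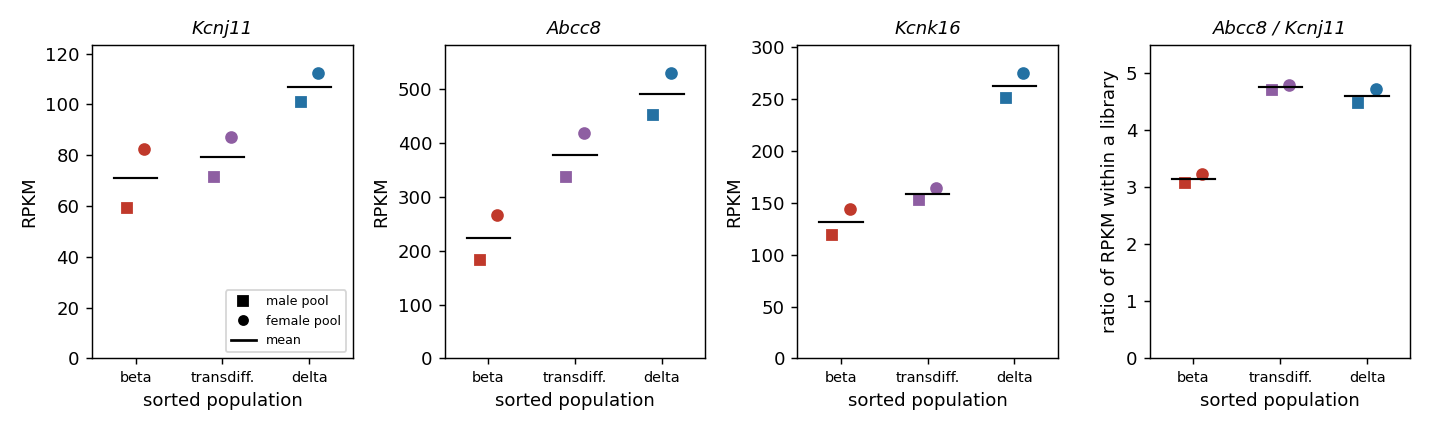
RPKM of Kcnj11, Abcc8 and Kcnk16 and the ratio of Abcc8 to Kcnj11 within a library (vertical axes, from 0) in beta, transdifferentiated and delta libraries (horizontal axis), with squares for male pools, circles for female pools and a line at the mean of 2. Delta libraries are highest for each of the 3 genes, and the ratio is 3.08 and 3.23 in beta libraries against 4.47 to 4.80 in the other 4.

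Two-pore channels carry background potassium current that is open at rest. Of the 14 genes, 4 were tested, and all 4 were lower in beta than in delta cells, beside 46.3% of all genes. Kcnk16, which encodes the alkaline-activated channel TALK-1 and is largely restricted to the pancreas, was at 119 and 144 RPKM in beta, 153 and 164 in transdifferentiated and 251 and 275 in delta libraries. Both delta libraries lay above the other 4, and the beta and transdifferentiated libraries did not overlap. On the log2 scale the difference was -1.0 (SE 0.13, adjusted p = 0.000885) in beta and -0.73 (SE 0.13, adjusted p = 0.0148) in transdifferentiated against delta cells. The second call was lost when any 1 of the 4 libraries compared was left out (adjusted p from 0.0646 to 0.135), and the difference between transdifferentiated and beta, 0.27 with adjusted p = 0.119, turned to -0.13 after scaling and passed without beta replicate 2 (0.41, adjusted p = 0.0263).

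Kcnk3, the acid-sensitive leak channel TASK-1, showed a much larger contrast at a lower level. It was at 0.385 and 0.369 RPKM in beta, 3.65 and 4.27 in transdifferentiated and 11.1 and 12.5 in delta libraries, so the transdifferentiated libraries lay between the other 2 groups without overlap. Its log2 fold changes were -3.21 (SE 0.13, adjusted p = 1.08e-05) in beta against delta, 1.85 (adjusted p = 0.000212) in transdifferentiated against beta and -1.37 (adjusted p = 0.00167) in transdifferentiated against delta cells. Kcnk1, the weakly rectifying TWIK-1, was lower than in delta cells in beta (-0.83, adjusted p = 0.0015) and in transdifferentiated cells (-0.59, adjusted p = 0.0249), the latter call being lost without any 1 of the 4 libraries compared (adjusted p 0.0542 to 0.211). Kcnk12, a THIK-type subunit, was lower in beta than in delta cells by -0.77 (adjusted p = 0.0427), which was lost after scaling (-0.40) and without any 1 of the 4 libraries (adjusted p 0.0796 to 0.166). Against delta cells its transdifferentiated level gave -0.84 (adjusted p = 0.0949), or -1.26 (adjusted p = 0.024) without transdifferentiated replicate 2. An antisense transcript shares 8.01% of the exon length of Kcnk1, and since strand-specific counting is not stated for these files, its reads could be included.

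Inward rectifiers other than KATP hold the resting potential near the potassium equilibrium or open with G proteins. Among 13 genes 5 were tested. Of these, 4 were lower and 1 higher in beta than in delta cells, beside 46.3% and 11.7% of all genes. Kcnj4, a strong rectifier of neurons and heart, was at 0.194 and 0.091 RPKM in beta, 2.67 and 2.86 in transdifferentiated and 8.64 and 7.75 in delta libraries. Its relative Kcnj2 was at 0.0341 and 0.0539, 1.63 and 0.859, and 2.66 and 2.91 RPKM. For both genes the order beta, transdifferentiated, delta held with no overlap, and the beta libraries were close to 0. Kcnj4 differed by -3.01 (SE 0.13, adjusted p = 1.2e-05) in beta against delta, 1.72 (adjusted p = 0.000232) against beta and -1.29 (adjusted p = 0.00188) against delta in transdifferentiated cells. Kcnj2 gave -1.86, 1.08 and -0.78 in the same order (adjusted p = 0.000321, 0.00374 and 0.0409), and the last of these calls was lost without any 1 of 5 libraries, all but transdifferentiated replicate 1 (adjusted p 0.0625 to 0.196).

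Kcnj12, another strong rectifier, ran the other way. It was at 4.23 and 4.69 RPKM in beta, 2.0 and 3.54 in transdifferentiated and 0.0429 and 0.0696 in delta libraries, or about 5 reads in the 2 delta libraries together. The delta libraries were near 0 and the transdifferentiated libraries below both beta libraries. On the log2 scale the difference was 2.37 (SE 0.20, adjusted p = 0.000174) in beta and 1.80 (SE 0.20, adjusted p = 0.00301) in transdifferentiated against delta cells, and -0.56 (adjusted p = 0.0547) in transdifferentiated against beta cells, which passed after scaling (-0.89, adjusted p = 0.0113), in the fit blocked by pool (adjusted p = 0.0313) and without transdifferentiated replicate 2 (-0.86, adjusted p = 0.0108). Among the G-protein-gated channels, Kcnj3 was lower in beta than delta by -1.67 and Kcnj6 by -1.26 (adjusted p = 0.000148 and 0.000891), and both were higher in transdifferentiated than in beta cells, by 0.79 and 0.82. Only Kcnj3 also passed against delta cells (-0.88, adjusted p = 0.00954, or 0.0533 with a pseudocount of 0.1), while Kcnj6 was at -0.44 (adjusted p = 0.143). A noncoding gene on the opposite strand shares 31.1% of the exon length of Kcnj3.

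Voltage-gated channels of the Kv1 to Kv4 families repolarise the action potential. Of 17 genes 7 were tested. In beta cells 6 of these were lower than in delta cells, beside 46.3% of all genes. The same 6 were higher in transdifferentiated than in beta cells (42.5% of all genes). Against delta cells 4 of the 7 were lower in transdifferentiated cells (7.2% of all genes). Kcna5, a delayed rectifier, was at 0.0162 and 0.0512 RPKM in beta, 5.10 and 3.94 in transdifferentiated and 15.0 and 16.3 in delta libraries. Kcnc2, a fast channel of the Kv3 type, was at 0.135 and 0.142, 7.52 and 6.86, and 15.3 and 13.9 RPKM. The beta values of Kcna5 correspond to about 1 and 3 reads, and in both genes the 3 groups were fully separated.

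On the log2(RPKM + 1) scale, which shrinks the differences of low genes, Kcna5 had the largest fold change of any tested member in any of the 3 comparisons, -4.01 (SE 0.14, adjusted p = 7.94e-06) in beta against delta cells, with 2.41 (adjusted p = 0.000153) against beta and -1.60 (adjusted p = 0.00138) against delta in transdifferentiated cells. Kcnc2 gave -3.77 (SE 0.12, adjusted p = 5.01e-06), 2.85 (adjusted p = 5.5e-05) and -0.93 (adjusted p = 0.0044). Kcnd2, a pore of the transient A-type current, was at 0 and 0 RPKM in beta, 0.914 and 1.21 in transdifferentiated and 3.24 and 3.90 in delta libraries. With a floor of 3 reads over the beta group, Kcnd2 was at least 257-fold higher in delta and at least 76.7-fold higher in transdifferentiated than in beta cells. It was also lower in transdifferentiated than in delta cells, by -1.15 (SE 0.15, adjusted p = 0.00478).

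Other Kv genes differed less. Kcnb2, a delayed rectifier, was lower in beta than in delta (-1.51, adjusted p = 0.000164) and higher in transdifferentiated than in beta cells (0.98, adjusted p = 0.00133). Its call against delta cells (-0.52, adjusted p = 0.0425) did not hold in the fit blocked by pool (adjusted p = 0.0521) or without any 1 of the 4 libraries compared (0.0997 to 0.234). Kcnd1, an A-type pore, was lower in beta than in delta by -0.54 (adjusted p = 0.0253) and higher in transdifferentiated than in beta by 0.57 (adjusted p = 0.0248), and both calls were lost after scaling (-0.26 and 0.30), without beta replicate 1 and without either library of the other group (adjusted p 0.061 to 0.123).

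**Figure D3:**
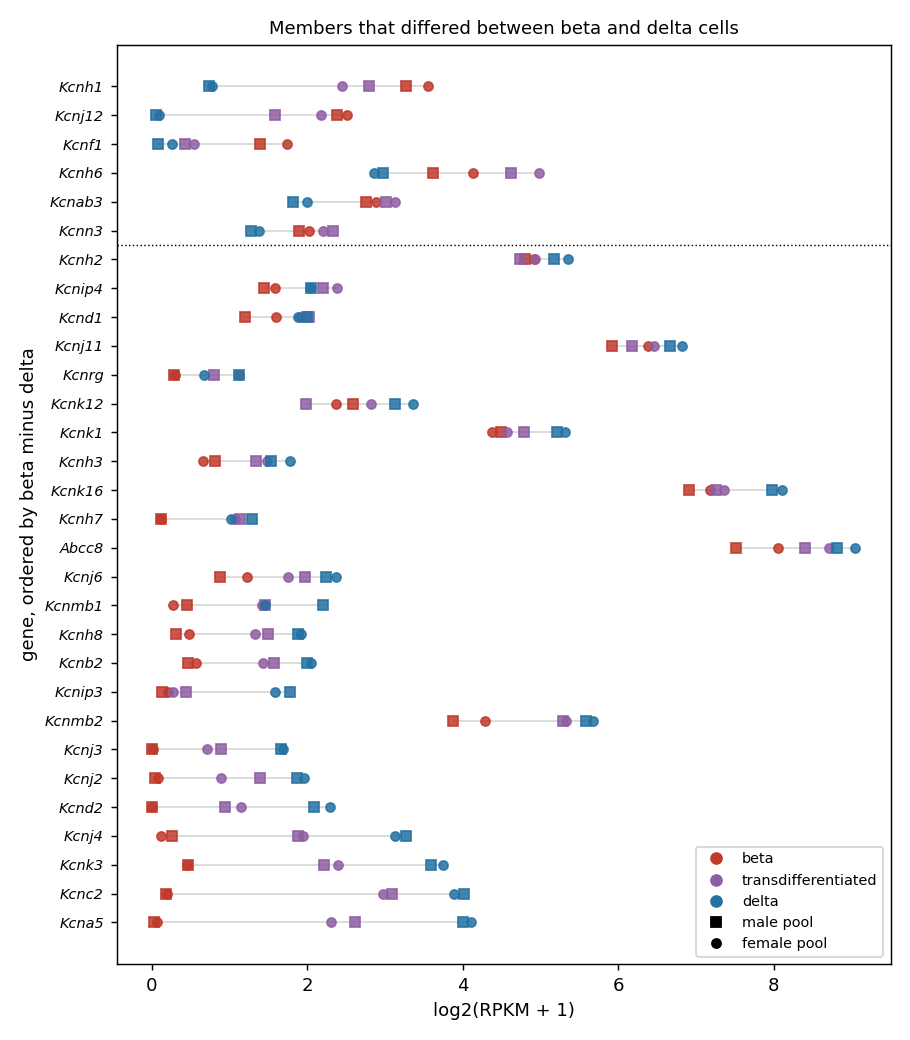
Log2(RPKM + 1) (horizontal axis) of 30 of the 32 members that differed between beta and delta cells (vertical axis, ordered by that difference, a dotted line separating lower from higher), in 6 libraries coloured by population, with squares for male and circles for female pools. Transdifferentiated points of Kcna5, Kcnc2, Kcnk3, Kcnj4 and Kcnd2 lie between the 2 other populations, and those of Kcnh6 lie to the right of both.

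EAG-type channels include the EAG, ERG and ELK branches, of which the ERG channels slow firing in beta cells. Of 8 genes 6 were tested, with 2 higher and 4 lower in beta than in delta cells (11.7% and 46.3% of all genes). Kcnh6, an ERG channel, was at 11.3 and 16.5 RPKM in beta, 23.6 and 30.6 in transdifferentiated and 6.89 and 6.24 in delta libraries. Both transdifferentiated libraries were above every other library, and beta was above delta. The log2 fold change in transdifferentiated cells was 0.92 (SE 0.20, adjusted p = 0.00912) against beta, or 0.54 (adjusted p = 0.0407) after scaling, and 1.88 (SE 0.20, adjusted p = 0.0026) against delta cells. It was 0.96 (SE 0.20, adjusted p = 0.00642) in beta against delta cells. The call against beta was lost without transdifferentiated replicate 2 (0.75, adjusted p = 0.0528).

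Kcnh2, the ERG channel best known from the heart, did not follow Kcnh6. It was at 26.9 and 29.3 RPKM in beta, 25.7 and 29.4 in transdifferentiated and 35.2 and 39.9 in delta libraries, so beta and transdifferentiated overlapped and delta was highest. It was lower in beta than in delta cells by -0.40 (SE 0.12, adjusted p = 0.0283), a call that was lost without beta replicate 1 (adjusted p = 0.0741), delta replicate 1 (0.0697) or delta replicate 2 (0.192), and after scaling, where it was 0.01. Against delta cells its transdifferentiated level gave -0.43 (adjusted p = 0.0711), and this passed once the pool was a block (adjusted p = 0.0362). Against beta cells it was -0.03, or -0.42 with adjusted p = 0.0289 after scaling. Within a library there were 0.420 and 0.565 Kcnh6 RPKM per Kcnh2 RPKM in beta, 0.920 and 1.04 in transdifferentiated and 0.196 and 0.156 in delta cells, with no overlap between groups (exact permutation p = 0.333 for each pair, the smallest possible).

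Kcnh1, the EAG channel, was the member highest in beta relative to delta cells on the log2(RPKM + 1) scale, although the plain ratio of mean RPKM, 14.0 for Kcnh1, was larger for Kcnf1 (15.2) and Kcnj12 (79.4). It was at 8.65 and 10.7 RPKM in beta, 5.94 and 4.46 in transdifferentiated and 0.667 and 0.713 in delta libraries. The 3 groups did not overlap, with transdifferentiated between the others. Its log2 difference was 2.65 (SE 0.16, adjusted p = 4.88e-05) in beta against delta, 1.86 (adjusted p = 0.00138) in transdifferentiated against delta and -0.79 (SE 0.16, adjusted p = 0.00747) in transdifferentiated against beta cells. The ELK genes Kcnh3 and Kcnh8 and the ERG gene Kcnh7 were lower in beta than in delta cells (-0.92, -1.51 and -1.04) and higher in transdifferentiated than in beta cells (0.68, 1.01 and 0.99). None of the 3 passed between transdifferentiated and delta cells, where adjusted p was 0.358, 0.0655 and 0.878.

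Silent Kv subunits form no channel alone but change the Kv2 channels they join. Of 10 silent subunits 2 were tested. Kcnf1 was at 1.63 and 2.34, 0.350 and 0.460, and 0.0615 and 0.200 RPKM in beta, transdifferentiated and delta libraries. It was the member lowest in transdifferentiated relative to beta cells, at -1.08 (SE 0.17, adjusted p = 0.00275), with 1.39 (adjusted p = 0.000713) in beta against delta and 0.31 (adjusted p = 0.3) in transdifferentiated against delta cells.

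Kcng3, the other silent subunit, differed between the pools of the beta group. Its level was 0.263 RPKM in the male beta library and 1.35 RPKM in the female one, 1.45 and 2.21 in the transdifferentiated and 0.281 and 0.228 in the delta libraries. Its call in transdifferentiated against delta cells (1.16, SE 0.30, adjusted p = 0.0498) was lost after scaling (adjusted p = 0.0687) and without any 1 of the 4 libraries compared (0.0997 to 0.215). Against beta cells it gave 0.70 (adjusted p = 0.0881), which passed in the fit blocked by pool (adjusted p = 0.0395) and when beta replicate 2 was left out (1.15, adjusted p = 0.0134), and in beta against delta 0.46 (adjusted p = 0.223) passed without beta replicate 1 (0.91, adjusted p = 0.0249).

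Calcium-activated channels couple calcium entry to repolarisation. The pore of the large-conductance BK channel, Kcnma1, passed in no comparison, at 7.98 ± 2.9 RPKM in beta, 10.1 ± 1.1 in transdifferentiated and 9.82 ± 0.14 in delta cells (SD, n = 2). Without beta replicate 2 it was lower in beta than in both other groups, by -0.65 against delta and with 0.69 in transdifferentiated against beta cells (adjusted p = 0.00835 and 0.0083). Its accessory subunit Kcnmb2, which can inactivate the channel, was at 13.7 and 18.6 RPKM in beta, 38.3 and 39.2 in transdifferentiated and 47.2 and 50.3 in delta libraries. Both beta libraries were below the other 4, and the transdifferentiated libraries lay below the delta ones. Kcnmb2 was lower in beta than in delta cells by -1.55 (SE 0.15, adjusted p = 0.000287) and higher in transdifferentiated than in beta cells by 1.23 (SE 0.15, adjusted p = 0.00112), and between transdifferentiated and delta it was -0.32 (adjusted p = 0.23), which passed when either beta library was left out of the model (adjusted p = 0.0443 and 0.0464). A second BK accessory subunit, Kcnmb1, was lower in beta than in delta (-1.47, adjusted p = 0.00238) and higher in transdifferentiated than in beta cells (1.07, adjusted p = 0.0104), the latter lost without transdifferentiated replicate 1 (adjusted p = 0.0513).

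Among the small-conductance SK channels, Kcnn3 was higher than in delta cells in beta (0.63, SE 0.12, adjusted p = 0.00526) and in transdifferentiated cells (0.94, SE 0.12, adjusted p = 0.00542). Its difference between transdifferentiated and beta was 0.31 (adjusted p = 0.0765), which became -0.0022 after scaling. Kcnn1 passed in no comparison before scaling, at 1.24 ± 0.0032 RPKM in beta, 0.765 ± 0.13 in transdifferentiated and 1.03 ± 0.081 in delta cells, and after scaling it was lower in transdifferentiated than in beta cells (-0.56, adjusted p = 0.0122) and higher in beta than in delta cells (0.38, adjusted p = 0.0441). Kcnu1, a sperm channel of the Slo family, was between 0.983 and 1.63 RPKM in all libraries and passed nowhere.

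Auxiliary subunits gave 6 tested genes of 13. Kcnip3, a calcium-binding KChIP that also acts as a transcriptional repressor, was at 0.0915 and 0.152 RPKM in beta, 0.360 and 0.207 in transdifferentiated and 2.43 and 2.0 in delta libraries. Only the delta libraries were above 1 RPKM. It was lower than in delta cells by -1.51 (SE 0.15, adjusted p = 0.000301) in beta and by -1.32 (SE 0.15, adjusted p = 0.00304) in transdifferentiated cells, with 0.19 (adjusted p = 0.312) between the latter populations. Kcnip4, another KChIP, was higher in transdifferentiated than in beta cells by 0.78 (adjusted p = 0.00306), and its call in beta against delta (-0.53, adjusted p = 0.0112) was lost after scaling (-0.23) and without delta replicate 1 (adjusted p = 0.0663) or delta replicate 2 (0.0596). Kcnip1 stood between 16.4 and 20.7 RPKM in all 6 libraries and passed in no comparison, although after scaling it was higher in beta than in delta (0.58, adjusted p = 0.00919) and lower in transdifferentiated than in beta cells (-0.43, adjusted p = 0.0299).

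Kcnab3, a beta subunit of Kv1 channels, was at 5.76 and 6.36 RPKM in beta, 7.10 and 7.75 in transdifferentiated and 2.51 and 2.98 in delta libraries. The 3 groups were separated, with transdifferentiated highest and delta lowest. It was higher than in delta cells in beta (0.92, SE 0.12, adjusted p = 0.00105) and transdifferentiated cells (1.17, SE 0.12, adjusted p = 0.00256), and 0.25 (adjusted p = 0.127) between transdifferentiated and beta turned to -0.10 after scaling. Its opposite-strand transcript shares exon bases with it. Kcnab2, a related subunit, passed in no comparison and lay between 0.74 and 1.31 RPKM. Kcnrg, a regulator of Kv1 channels, was lower in beta than in delta (-0.61, adjusted p = 0.0355) and higher in transdifferentiated than in beta cells (0.67, adjusted p = 0.0277), and neither call held without beta replicate 1 or beta replicate 2 (adjusted p 0.0931 to 0.129). The first was also lost after scaling (adjusted p = 0.0698).

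**Figure D4:**
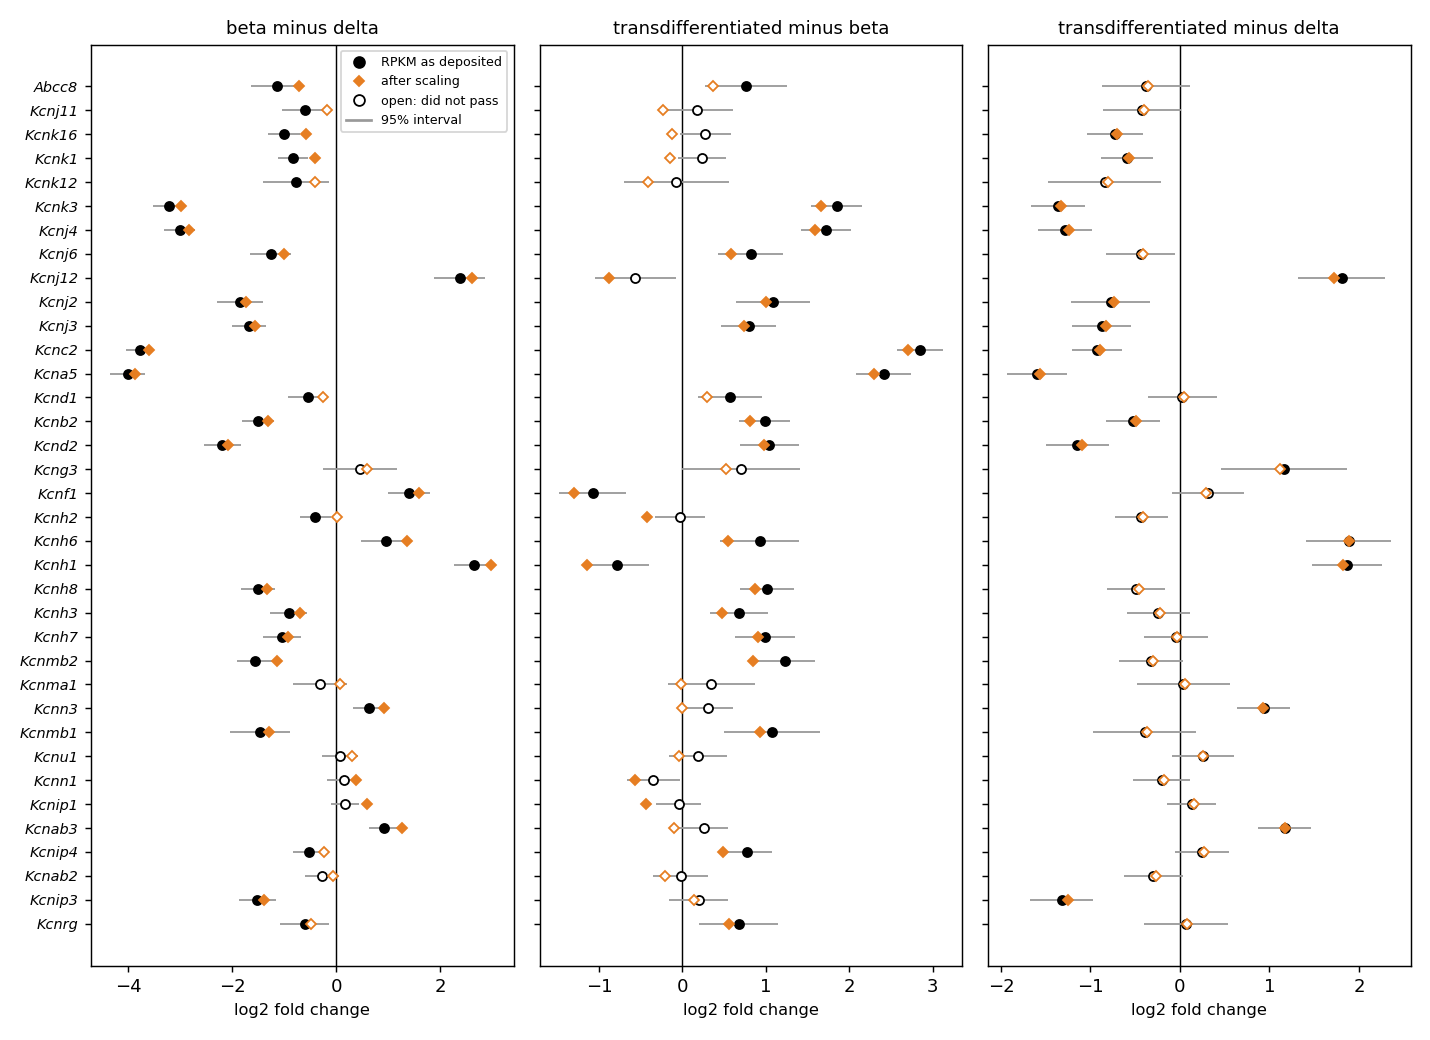
Log2 fold change (horizontal axes) of 36 of the 39 tested members (vertical axis) in the 3 comparisons, with the 95% interval, filled circles past the threshold, open circles not, and diamonds for the value after scaling. Scaling moves values to the left in transdifferentiated against beta, to the right in beta against delta, and hardly in transdifferentiated against delta.

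The transdifferentiated level was also read as a percentage of the level in a reference population. The 8 members that were lower in beta than in delta cells and passed in all 3 comparisons, Kcna5, Kcnd2, Kcnk3, Kcnj4, Kcnj3, Kcnj2, Kcnc2 and Kcnb2, stood in transdifferentiated cells at 28.9% (Kcna5) to 59.7% (Kcnb2) of the delta level, with a median of 33.8%. For comparison, 6 delta-cell markers stood at 23.8% (Sst) to 36.3% (Ptprz1), and 9 alpha- and PP-cell markers at 11.9% (Irx1) to 37.3% (Mamld1). The range of these 8 members began inside that of the delta markers and reached beyond it. Passing in all 3 comparisons chose these 8 and so fixed a level between those of beta and delta cells. No test was made of these percentages for that reason. Other reported members lower in beta than in delta cells stood at 12.8% (Kcnip3) to 125% (Kcnip4) of the delta level.

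Among the members higher in beta than in delta cells, the transdifferentiated level was 20.4% of the beta level for Kcnf1, 53.7% for Kcnh1, 62.0% for Kcnj12, 122% for Kcnab3, 132% for Kcnn3 and 195% for Kcnh6. The 8 beta-cell markers stood at 27.2% (Mafa) to 70.7% (Iapp) of the beta level. Kcnf1 was therefore below, and Kcnab3, Kcnn3 and Kcnh6 above, the range of those markers on the scale as deposited.

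**Figure D5:**
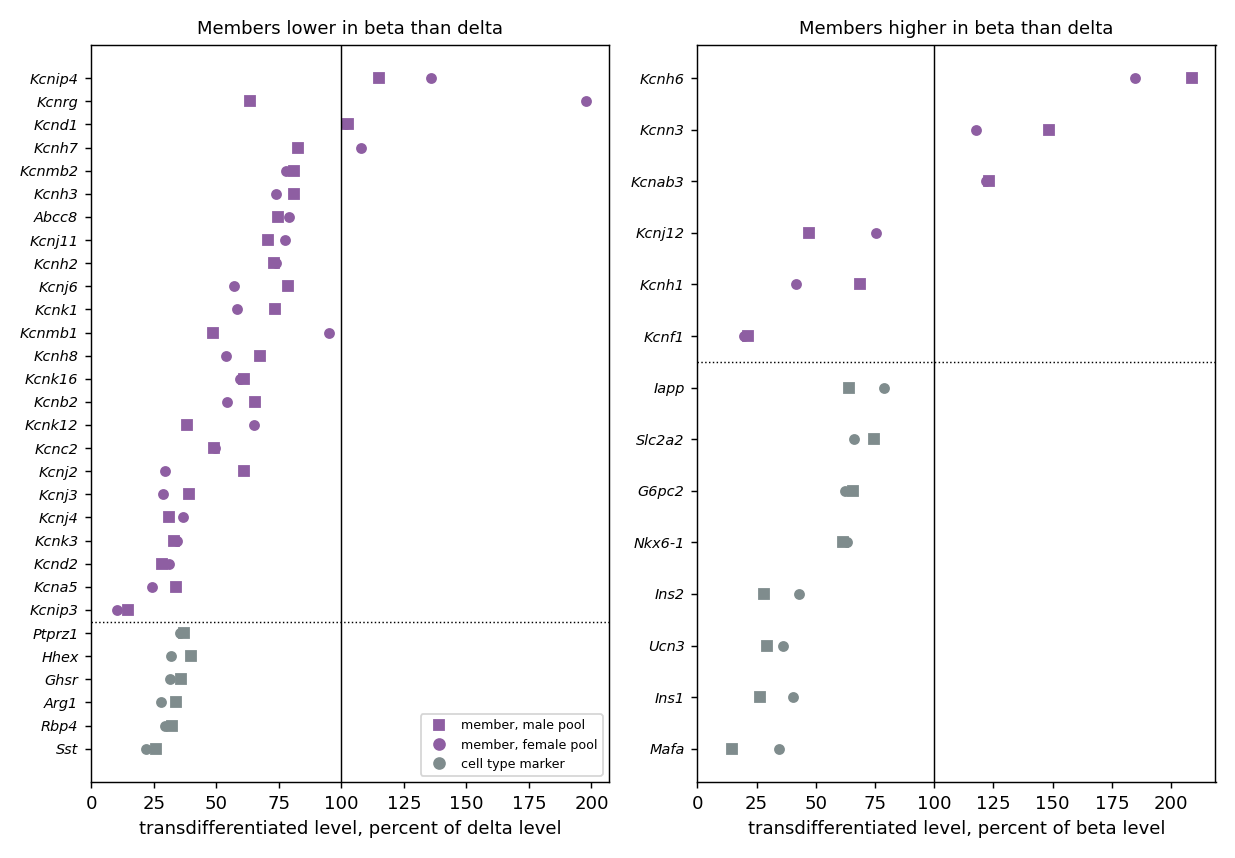
Transdifferentiated level as a percentage of the delta level (left) or beta level (right, horizontal axes) within the male pool (squares) and female pool (circles), for 30 members that differed between beta and delta cells (purple) and for cell-type markers (grey). Kcna5, Kcnd2, Kcnk3 and Kcnj4 lie near the delta markers, and Kcnh6 lies above 100% of the beta level in both pools.

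Partners and regulators of these channels, a list of 32 genes with 27 tested, gave 1 higher and 16 lower in beta than in delta cells (3.7% and 59.3%), beside 11.7% and 46.3% of all genes, with a median of -0.47 against -0.36. After scaling the split was 5 higher and 10 lower (18.5% and 37.0%, beside 27.8% and 29.7% of all genes), with a median of -0.05. In transdifferentiated against beta cells 12 were higher and 3 lower (44.4% and 11.1%, beside 42.5% and 8.46%), shares near those of all genes, and after scaling 10 and 8 (37.0% and 29.6%, beside 27.8% and 26.1%). Against delta cells 2 were higher and 7 lower (7.4% and 25.9%, beside 5.53% and 7.2%), or 2 and 6 after scaling. Dpp6, a Kv4 partner, had a mean of 0.106 RPKM in beta, 8.10 in transdifferentiated and 26.8 in delta cells. Its log2 fold changes were -4.65 in beta against delta, 3.04 in transdifferentiated against beta and -1.61 in transdifferentiated against delta cells. The related Dpp10 gave -2.34, 1.17 and -1.17 in the same order, and Gng2, a G-protein gamma subunit, gave -3.20, 1.93 and -1.27.

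The GABA-B receptor auxiliary genes Kctd8 and Kctd12 and the release protein gene Stx1a were lower in transdifferentiated than in delta cells by -0.99, -0.75 and -0.58, and all 3 were higher than in beta cells by 1.66, 0.96 and 0.69. Kctd16 passed against beta cells only (0.84), and Gnb2, a G-protein beta subunit, was lower than in delta cells by -0.55, a call lost after scaling (adjusted p = 0.0516). Kctd12b and Snap25, which encodes a release protein that also binds potassium channels, were higher in transdifferentiated than in delta cells by 1.07 and 0.57 (adjusted p = 0.00575 and 0.0407) and than in beta cells by 1.25 and 1.25. The ubiquitin ligase gene Nedd4l was lower in beta than in delta cells (-1.05) and higher in transdifferentiated than in beta cells (0.70). Ank3 (0.61) and Calm2 (0.48), an ankyrin and a calmodulin gene, were higher and Calm3 (-0.47) and Prkaca (-0.35) lower in transdifferentiated than in beta cells, of which Ank3 and Calm2 lost the call after scaling. Ank3, Calm2, Kctd8, Kctd12, Kctd16 and Stx1a were lower in beta than in delta cells before and after scaling. Snap25, Gnb2, S100a10, Ywhab and Ywhae passed as lower before scaling only. Of these, Gnb2 (0.035) and Ywhae (0.063) turned direction after scaling without passing.

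Other potassium transport was represented by 30 listed genes, of which 22 were tested. Against delta cells 3 were lower and 0 higher in transdifferentiated cells by the limma test, namely the sodium pump subunit Atp1b2 (-0.85), the cotransporter Slc12a2 (-0.83) and the intracellular cation channel Tmem38a (-0.54). The 3 are 13.6% of the 22, beside 7.2% of all genes. Against beta cells 8 were higher and 2 lower (36.4% and 9.1%, beside 42.5% and 8.46% of all genes), shares near those of all genes. After scaling 5 were higher and 4 lower (22.7% and 18.2%, beside 27.8% and 26.1%). Among them, Slc12a2 (1.11), Slc12a5 (1.83), the exchanger gene Slc24a2 (1.27) and Pkd2 (1.05) were higher and the pump regulator Fxyd5 (-0.76) and the pacemaker channel Hcn2 (-0.61) lower on both scales, while Atp1b1 (0.47), Atp1b2 (0.68) and Tmem175 (0.43) were higher before scaling only. In beta against delta cells 2 were higher, Fxyd5 (1.27) and Hcn2 (0.64), and 12 lower, among them Slc12a2 (-1.94), Slc12a5 (-1.73) and Atp1b2 (-1.53), or 9.1% and 54.5% beside 11.7% and 46.3% of all genes. After scaling the counts were 5 and 8 (22.7% and 36.4%, beside 27.8% and 29.7%).

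Of the 61 members below the filter, 7 entered the test when it was lowered to 0.5 RPKM in 2 libraries. Kcnc1, a Kv3 channel, was lower in beta than in delta cells (-0.86, adjusted p = 0.00245) and higher in transdifferentiated than in beta cells (0.50, adjusted p = 0.0209). Kcnn2, an SK channel, was lower than in delta cells in beta (-0.75, adjusted p = 0.00252) and in transdifferentiated cells (-0.50, adjusted p = 0.0414), whereas the Kv1 gene Kcna2 (0.64, adjusted p = 0.0106) and the two-pore gene Kcnk13 (0.35, adjusted p = 0.0465) were higher in beta than in delta cells. Kcnh5 and Kcnab3os passed in no comparison.

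The sexes of the pools could not be separated from the replicate number, and the female library was above the male one for 29 of 39 members in beta (64.8% of all genes), 22 in transdifferentiated (46.1% of all genes) and 27 in delta cells (44.3% of all genes). The 2 libraries of a group differ in sex and pool at once, so these counts describe the libraries.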

How the data were processed

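The authors deposited 1 table of RPKM values per gene symbol for the 6 libraries, whose polyadenylated RNA was prepared with the TruSeq kit per the labels' protocols. The submitters' processing notes name STAR 2.5, featureCounts, edgeR 3.14.0 and the build GRCm38.p4, with no settings or strand mode. Members and gene lists were chosen with earlier results of these data known. Dropped were 27 symbols that a spreadsheet had made into dates. Genes reaching 1 RPKM in at least 2 libraries were fitted as log2(RPKM + 1) in 1 model over the 3 groups with limma 3.58.1 in R 4.3.3 (trend, 2-sided, Benjamini-Hochberg over 13022 genes, adjusted p under 0.05), a scale that understates changes of low genes. Read denominators were recovered from low values with GENCODE M21 exon lengths, and 83.3% to 86.4% of values under 50 reads came out whole within 0.01 read. Values in every library are given for the 4 KATP genes, the 5 most abundant members and, per comparison, the 6 higher and 6 lower members of largest fold change without overlap; some genes are not reported here. Per the series text, 1 set of islets gave all 3 populations of a pool, so pools pair the libraries. Deviations from group means correlated at 0.47, 0.24 and 0.36 between groups. Alternatives were a pseudocount of 0.1, other filters, median-of-ratios scaling, the pool as a block, and leaving out each library. Promoter windows come from RefSeq (GRCm38.p6).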

Additional observations from a re-analysis of the deposited data

Results flagged for a closer look

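For 8 differences between groups, in 6 members, the libraries of the male and the female pools differed in opposite directions, and none of these 8 differences passed in the comparison over both pools. Whether the pools differ was not tested, since each has 1 library per population. In transdifferentiated against delta cells the log2 difference was -0.16 in the male and 0.057 in the female pools for Kcnh7, 0.16 and -0.081 for the BK pore Kcnma1, and -0.31 and 0.45 for Kcnrg. In transdifferentiated against beta cells it was -0.066 and 0.0068 for the ERG channel Kcnh2, -0.60 and 0.45 for the two-pore gene Kcnk12, and 0.79 and -0.098 for Kcnma1. In beta against delta cells it was -0.021 and 0.94 for the silent subunit Kcng3, and -0.64 and 0.017 for Kcnma1. The male beta library was below the female one for Kcng3 and Kcnma1, and which of them stands apart cannot be told.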

How the results depend on the processing

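Leaving out 1 library moved the number of all genes called between 502 and 2075 in transdifferentiated against delta, 4120 and 7047 against beta, and 4893 and 7769 in beta against delta cells. The members' median log2 fold change ranged from -0.32 to -0.16 in transdifferentiated against delta cells, beside -0.04 to -0.01 over all genes. Against beta cells it ranged from 0.43 to 0.72, beside 0.27 to 0.39 over all genes. In beta against delta cells it ranged from -0.88 to -0.71, beside -0.43 to -0.31 over all genes. A lone library is then assumed to vary like the other groups. Some values crossed 0 when 1 library was left out. In transdifferentiated against delta cells these were Kcnd1 (-0.036 to 0.083), Kcnh7 (-0.19 to 0.088), Kcnma1 (-0.067 to 0.14) and Kcnrg (-0.15 to 0.23). Against beta cells they were Kcnab2 (-0.047 to 0.0020), Kcnh2 (-0.12 to 0.065), Kcnip1 (-0.11 to 0.016), Kcnj11 (-0.061 to 0.41) and Kcnk12 (-0.49 to 0.34), and in beta against delta cells Kcnma1 (-0.65 to 0.031).

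Median-of-ratios scaling raised the lower members against beta from 2 to 6, and the share of all genes lower against beta from 8.46% to 26.1%. It turned the direction against beta of Kcnab3 (-0.099), Kcnj11 (-0.23), Kcnk1 (-0.15), Kcnk16 (-0.13), Kcnma1 (-0.016), Kcnn3 (-0.0022) and Kcnu1 (-0.045), and in beta against delta of Kcnh2 (0.013) and Kcnma1 (0.075). Of these values before scaling, Kcnh2 alone had passed, and the cause of the turns was not tested. Over 108 values of 36 members, 12 calls were lost with no filter, where 26144 genes were tested, 9 with scaling, 5 with a pseudocount of 0.1 and 2 with a filter of 0.5 RPKM, and 6 were gained with scaling.

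With the pool as a replicate block, 7 of the 39 members were higher and 11 lower in transdifferentiated against delta cells. Over all 13022 genes, 847 were higher and 1078 lower in this comparison. Against beta cells 21 members were higher and 3 lower, beside 5748 and 1274 of all genes. In beta against delta cells the member counts were 7 and 25, beside 1649 and 6241 of all genes. The block ended the call of Kcnb2 (adjusted p = 0.0521) and added those of Kcnh2, Kcnj12 and Kcng3 given above, and it changed no other call of these 36 members. Depth limits values near 0 RPKM, such as those of Kcna5 in beta libraries, which rest on about 1 and 3 reads.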
